A study of Mus musculus with 3 samples.

Results

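The NFI ChIP-Seq library of mouse embryonic fibroblasts (MEF) that lack NFI-C was described through 7477 tag clusters, out of 9651 found in it. They are clusters of tags, and whether an NFI protein was bound at any single one was not tested. The members were chosen by the tags of the knock-out ChIP and of the input DNA. A cluster was a tag position with 5 or more uniquely mapped tags in the 300 bp centred on it. No position within 300 bp was higher, and ties went to the leftmost. A cluster was kept if the same 300 bp held 0 or 1 input tags. Knock-out and input tags of the members are therefore given as a description only. The wild-type ChIP library, the deposited in vivo NFI sites, the gene annotation and the genome sequence are not used by this rule. The members and the gene lists were nevertheless chosen with earlier results of these data known.

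The series mapped NFI-bound DNA in 2 kinds of MEF with an antibody (NFI (H300), sc-5567) raised against the NFI group of proteins, not against NFI-C alone. Each condition had 1 library: NFI ChIP of wild-type MEF, NFI ChIP of NFI-C knock-out MEF, and non-precipitated input DNA of wild-type MEF, so no input of the knock-out cells was analysed here. All cells were C57BL/6 by their label, came from embryos of 14.5 days and were used at passages 6 to 7. Chromatin of about 20000000 cells was cross-linked in 11% formaldehyde and sheared to about 1000 bp, and the libraries were cut from a gel at 50 to 400 bp, with 18 PCR cycles. With 1 library per condition no test between conditions was possible, and all intervals below are exact 95% binomial or Poisson intervals that cover counting error only. A description line of the knock-out library names wild-type cells while its title names the knock-out, and the title was followed. DNA from a ChIP or an input cannot show whether Nfic is expressed or whether the cells are fibroblasts, so neither label could be checked.

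Nuclear factor I proteins are encoded in the mouse by the genes Nfia, Nfib, Nfic and Nfix. A conserved amino-terminal domain serves both to pair the proteins, alike or mixed, and to contact DNA. Each partner recognises the letters TTGGCA, called a half-site, and sites with a facing copy on the opposite strand are bound more tightly than those with 1 copy. In fibroblasts NFI factors are known for roles in the control of matrix genes and in responses to growth factors of the TGF-beta family. An antibody against the whole group can precipitate NFI-A, NFI-B and NFI-X from cells without NFI-C.

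Chromosomes 1 to 19 held 150 palindromes without a mismatch. Among the 7477 members, 6 windows held one, or 0.0802% (0.0295 to 0.175). Over all knock-out tag positions with 0 or 1 input tags the share was 0.00609%. Of the 2174 knock-out clusters left out for their input tags 0.0460% (0.00116 to 0.256) held one, and this interval overlapped that of the members. The 6 members are shown because they are the closest matches to the consensus among the members, and they were singled out after their tag counts were seen. Each line gives the forward strand of NCBI build 37 (mm9) with the palindrome in capitals, named by the gene whose transcription start site (TSS) lies nearest.
Nfia, chr4:97443185-97443223: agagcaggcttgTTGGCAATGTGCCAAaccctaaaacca
Kcnip4, chr5:49920730-49920768: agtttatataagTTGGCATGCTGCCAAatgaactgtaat
Jazf1, chr6:52791881-52791919: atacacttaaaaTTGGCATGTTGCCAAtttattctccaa
Fxyd5, chr7:31802597-31802635: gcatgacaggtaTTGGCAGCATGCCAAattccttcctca
Rhot1, chr11:80060684-80060722: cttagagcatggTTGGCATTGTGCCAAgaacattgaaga
Crybg3, chr16:59548366-59548404: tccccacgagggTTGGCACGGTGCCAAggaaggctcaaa

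The 6 members with the most knock-out tags among those whose palindrome had at most 1 mismatch are shown in the same way.
2810055G20Rik, chr16:77501442-77501480: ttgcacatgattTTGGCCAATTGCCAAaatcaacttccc
Ccdc41, chr10:94172500-94172538: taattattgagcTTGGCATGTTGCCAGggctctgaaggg
Ctnnb1, chr9:120828024-120828062: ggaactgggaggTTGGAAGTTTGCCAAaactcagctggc
Celf2, chr2:7168076-7168114: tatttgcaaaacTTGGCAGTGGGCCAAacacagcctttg
Wif1, chr10:120492670-120492708: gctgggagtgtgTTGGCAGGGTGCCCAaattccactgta
Gdf15, chr8:73158037-73158075: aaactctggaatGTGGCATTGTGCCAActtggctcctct

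The whole 300 bp windows of the 4 members with the most knock-out tags are shown because they had the highest counts of all, 20 in introns of Bcas3 and Camk1d and 17 in an intron of Myst4 and outside 1700029H14Rik. TTGGCA half-sites are in capitals. The Bcas3 window held 2 and the Myst4 window 1, the Camk1d and 1700029H14Rik windows held 0, and none of the 4 held a palindrome.
Bcas3, chr11:85589094-85589393: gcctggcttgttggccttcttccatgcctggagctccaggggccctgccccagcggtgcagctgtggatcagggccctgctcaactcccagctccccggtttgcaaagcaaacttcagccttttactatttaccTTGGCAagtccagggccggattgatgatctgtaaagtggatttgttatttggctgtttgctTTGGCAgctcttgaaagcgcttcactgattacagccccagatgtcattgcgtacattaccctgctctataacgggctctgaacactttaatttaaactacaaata
Camk1d, chr2:5534997-5535296: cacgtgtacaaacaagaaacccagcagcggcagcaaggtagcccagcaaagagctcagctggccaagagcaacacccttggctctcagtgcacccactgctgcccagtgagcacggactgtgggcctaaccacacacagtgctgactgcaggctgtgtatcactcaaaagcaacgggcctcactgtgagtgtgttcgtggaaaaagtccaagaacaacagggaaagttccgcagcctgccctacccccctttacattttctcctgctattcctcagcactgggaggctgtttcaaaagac
Myst4, chr14:22412160-22412459: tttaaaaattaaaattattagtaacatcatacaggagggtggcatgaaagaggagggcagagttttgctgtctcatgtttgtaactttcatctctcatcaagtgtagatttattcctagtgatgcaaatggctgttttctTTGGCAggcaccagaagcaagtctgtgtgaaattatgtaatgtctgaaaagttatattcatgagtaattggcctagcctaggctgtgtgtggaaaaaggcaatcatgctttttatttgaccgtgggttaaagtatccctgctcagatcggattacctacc
1700029H14Rik, chr8:13531029-13531328: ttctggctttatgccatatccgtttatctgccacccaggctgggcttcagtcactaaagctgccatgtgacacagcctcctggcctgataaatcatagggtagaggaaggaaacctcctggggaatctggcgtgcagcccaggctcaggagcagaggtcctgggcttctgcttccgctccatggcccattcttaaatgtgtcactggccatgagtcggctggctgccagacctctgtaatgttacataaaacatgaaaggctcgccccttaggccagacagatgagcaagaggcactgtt

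The libraries held 3186944 tags from the wild-type ChIP, 2978316 from the knock-out ChIP and 3920580 from the input on chromosomes 1 to 19 once each position and strand was counted at most once, which is 0.399, 0.373 and 0.491 tags per 300 bp of known sequence. Each knock-out tag stood for 3.46 reads on average, each wild-type tag for 2.91 and each input tag for 1.32. Of all knock-out tag positions, 1.4% had 5 or more tags in their 300 bp. The input filter kept 77.5% of the knock-out clusters. Of the members, 4540 had no input tag and 2937 had 1. Most clusters were close to the threshold: 5017 members had 5 tags, 1399 had 6, 519 had 7, 387 had 8 or 9 and 155 had 10 to 20. Just outside the tag threshold lay 19365 local maxima of 4 tags with 0 or 1 input tags, and just outside the input limit 1123 clusters with 2 input tags. The remaining clusters left out held 3 to 5 (562) or over 5 (489) input tags. The same rule gave 12912 clusters in the wild-type ChIP, of which 10504 passed the input filter, and the reverse comparison gave 23136 input clusters, of which 19181 had 0 or 1 knock-out tags.

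The members that lay close to deposited wild-type sites were a minority that grew with the number of knock-out tags. Of the 7477 members, 742 had the centre of a deposited in vivo NFI site within 300 bp, which is 9.92% (9.26 to 10.6). Over all knock-out tag positions with 0 or 1 input tags, 2628500 positions that serve as the background here, this share was 1.58%. Among members with 5 knock-out tags the share was 6.10% (306 of 5017), with 6 tags 10.3%, with 7 tags 21.8%, with 8 or 9 tags 28.4% (110 of 387), and with 10 or more tags 44.5% (69 of 155). The intervals of the classes from 5 to 7 tags did not overlap each other. Among the local maxima of 4 tags just outside the threshold 3.35% were near a site. The 2174 clusters left out for 2 or more input tags were near a site more often than the members, in 19.9% of cases (18.2 to 21.6), with a median distance of 7666 bp. Members without an input tag were near a site in 8.83% of cases and those with 1 input tag in 11.6%.

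Measured from the members, the nearest deposited site was at a median of 14.2 kb, against 21.4 kb over the background positions. For the 155 members with 10 or more knock-out tags the median was 529 bp. At the other end, 1144 members (15.3%) lay over 50 kb from any deposited site, against 23.3% of background positions. Seen from the list, 741 of 38625 deposited sites on chromosomes 1 to 19 (1.92%) had a member within 300 bp. These 741 sites held the palindrome with at most 2 mismatches in 13.5% (11.1 to 16.2) of cases, the other 37884 sites in 2.83% (2.67 to 3.00). They had 4.12 wild-type tags on average against 3.25 at the other sites, and 0.641 against 0.912 input tags. The input limit in the choice of the members bears directly on the last pair of values.

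The deposited sites need a caution before they are used to divide the members. They were called by the authors from the same wild-type library, so more wild-type tags at members near a site follow from how these are set apart, and values for the near and other members are a description. The parameters stated for the list also did not give it here: the same rule found 12912 wild-type clusters against 38625 deposited sites, and the median deposited site without a member nearby had 3 wild-type tags in 300 bp.

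The wild-type library also had tags at the members. Wild-type tags in the member windows numbered 7875, a mean of 1.05 per window, which is 2.64-fold (2.58 to 2.70) the genome average. Over the background positions the same ratio was 1.21. The fold rose from 2.00 at members with 5 knock-out tags through 2.78, 4.47 and 5.78 to 8.06 (7.37 to 8.80) at members with 10 or more. Members near a deposited site stood at 9.79-fold, as the choice of those sites brings with it, and the other 6735 members at 1.85-fold (1.80 to 1.90). The clusters left out stood at 11.6-fold on average, though their median was 1 wild-type tag, as it was for the members. A wild-type count of 5 or more, which would itself meet the threshold, was found at 291 members (3.89%), against 0.224% of background positions. No wild-type tag was found at 3608 members (48.3%), against 65.9% of background positions. By the cluster rule itself, 411 members (5.50%) lay within 300 bp of a wild-type cluster that passed the input filter, and 414 of the 10504 wild-type clusters (3.94%) lay within 300 bp of a member. This closeness was not counted over background positions.

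**Figure D1:**
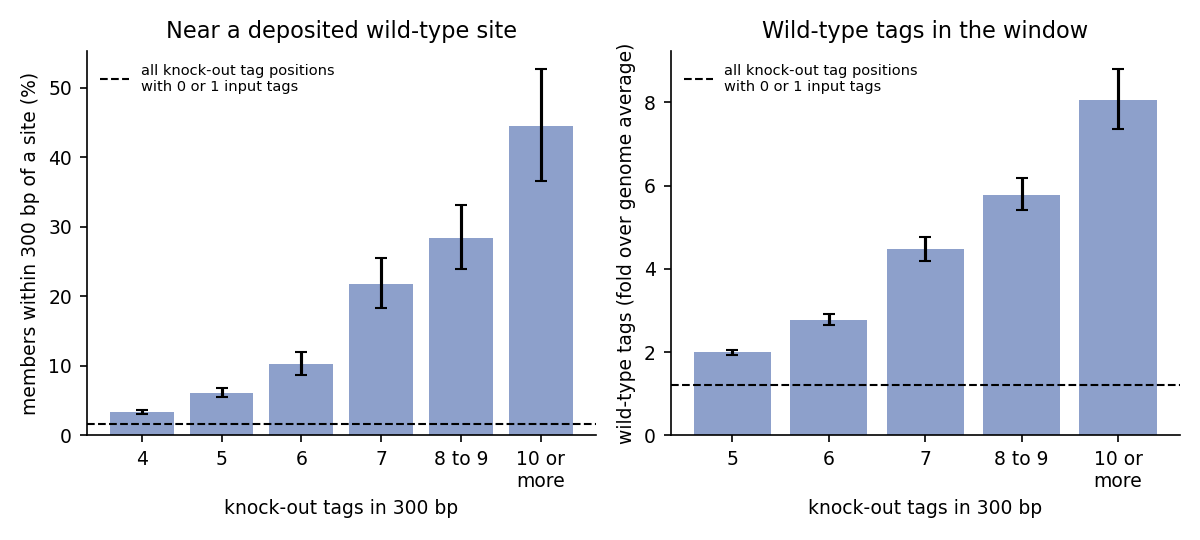
Share of members within 300 bp of a deposited wild-type site (left, percent) and wild-type tags in the 300 bp window as fold over the genome average (right), by the number of knock-out tags in the window; error bars are exact 95% intervals for counting error. Bars rose from 6.10% to 44.5% and from 2.00-fold to 8.06-fold between members with 5 and with 10 or more knock-out tags, and the dashed lines mark all knock-out tag positions with 0 or 1 input tags (1.58% and 1.21-fold); the left bar at 4 tags shows the local maxima just outside the threshold.

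In both ChIP libraries the tags around the members rose locally. Between 150 and 500 bp from the members knock-out tags, which the rule also uses over most of this distance, were at 3.05-fold and wild-type tags at 1.78-fold the genome average, against 1.38-fold for the input. From 1000 to 2000 bp away the 3 libraries were at 1.32-fold (knock-out), 1.26-fold (wild type) and 1.30-fold (input). At members near a deposited site the wild-type tags between 150 and 500 bp were at 4.48-fold and the knock-out tags at 4.34-fold. Knock-out tags had a part in the choice of the members and wild-type tags in the site call. These values are therefore a description and do not compare the conditions. At the other members the wild-type tags there were at 1.48-fold (1.45 to 1.51) and those of the input at 1.32-fold (1.30 to 1.35), so the input rose there as well and its part in the wild-type value was not tested. The clusters left out for their input tags differed from the members, with 6.04-fold input tags even 1000 to 2000 bp away.

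**Figure D2:**
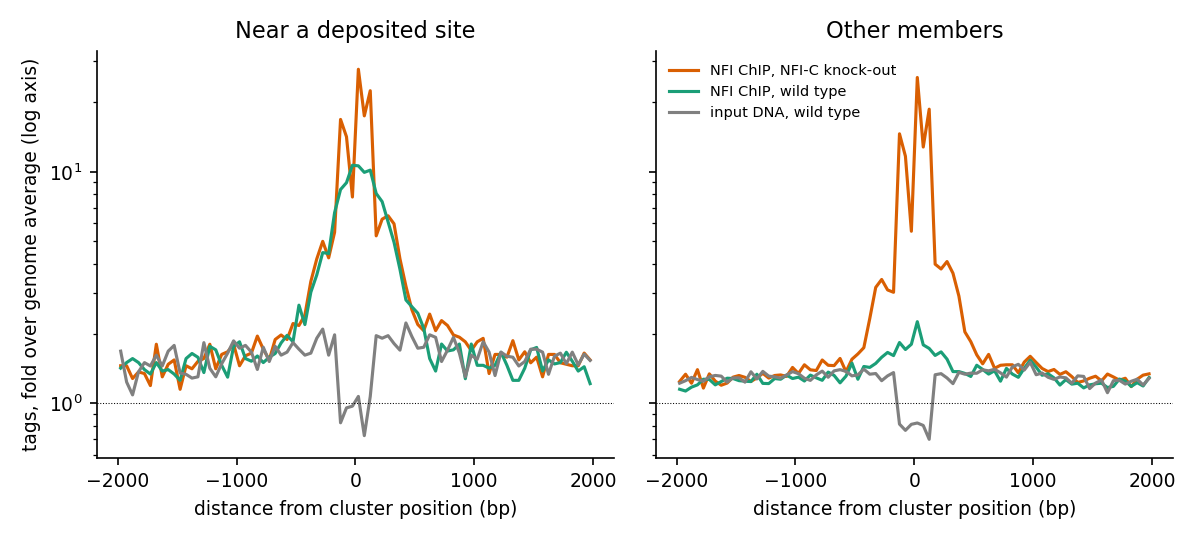
Tags per 50 bp bin, as fold over the genome average of each library (log axis), by distance in bp from the cluster position, for 742 members near a deposited wild-type site (left) and 6735 other members (right). Wild-type tags (green) peaked at the centre of both sets. Their peak was higher in the left panel, whose members were set apart by sites called from wild-type tags. Between 150 and 500 bp the knock-out (4.34 against 2.91-fold) and the input (1.86 against 1.32-fold) were higher there too. The part of the site call in the difference was not tested. The dip of the input (grey) and the height of the knock-out (orange) within 150 bp follow from the choice of the members.

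In ChIP-Seq, tags around a bound position come mostly from the forward strand to its left and the reverse strand to its right. Of the knock-out tags 150 to 500 bp to the left of the members 74.9% were on the forward strand, and of those as far to the right 23.2%. In the wild-type library these shares were 55.9% (54.6 to 57.1) and 41.3% (40.1 to 42.5), and in the input 48.5% and 51.7%. Near deposited sites the wild-type shares were 68.2% and 29.3%. At the other members the wild-type shares were still unequal, 52.4% (50.9 to 53.8) on the left and 45.9% (44.5 to 47.4) on the right. All knock-out tags were on 1 strand at 113 members (1.51%), against 2.94% of the clusters left out. None of the 155 members with 10 or more tags was of this kind, which a high count makes unlikely by itself. The tags of the members stood for 3.39 reads each, close to the 3.46 over the whole library, and those of the clusters left out for 12.7, while the median was 3 reads per tag in both the members and the clusters left out.

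**Figure D3:**
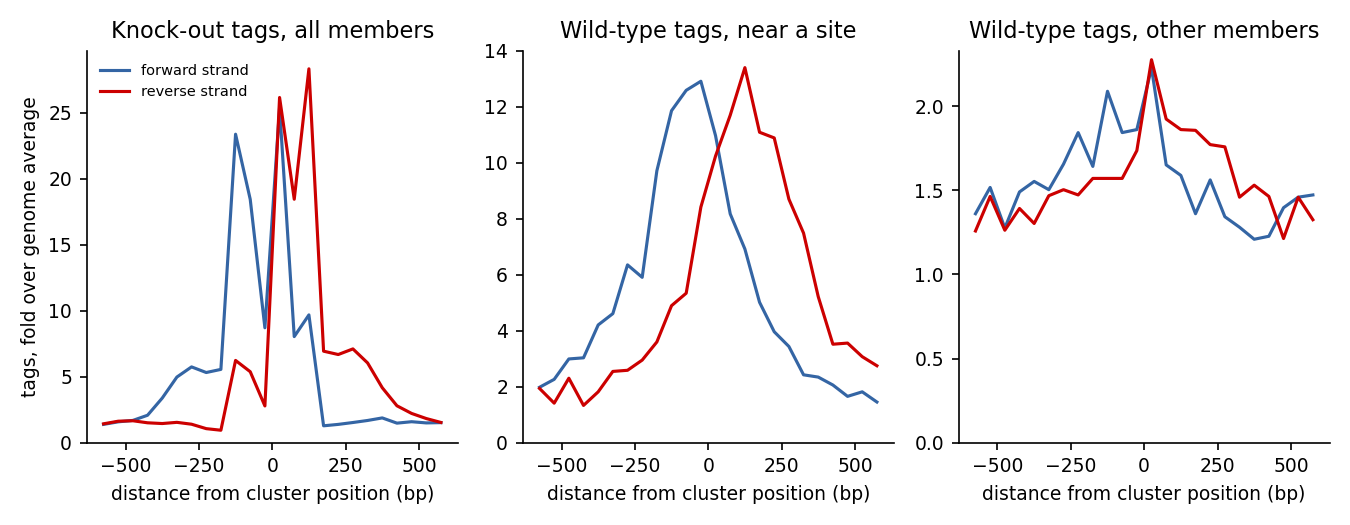
Tags on the forward (blue) and reverse (red) strand per 50 bp bin, as fold over the genome average, by distance in bp from the cluster position: knock-out tags at all members (left), wild-type tags at members near a deposited site (middle) and wild-type tags at the other members (right). Forward tags lay to the left of reverse tags in each panel, least clearly in the right one, whose axis is the smallest; the knock-out peak at 0 includes the tag that marks the cluster position.

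Matches to the NFI palindrome were more frequent at the members than at background positions, and so they were at the clusters left out. The palindrome is written here as TTGGCANNNTGCCAA, both strands read the same, and at most 2 mismatches were allowed at its 12 fixed positions. It was found in the window of 450 members, 6.02% (5.49 to 6.58), against 1.53% of background positions and 1.17% of all 300 bp stretches of the genome. With at most 1 mismatch 58 members held it (0.776%, against 0.122% of background positions). Members near a deposited site held it in 16.2% of cases, other members in 4.90% (4.40 to 5.44). Its density by position was 2.54 per 10 kb in the central 100 bp and lay between 0.321 and 0.575 at 500 bp or more. The share rose from 4.27% at 5 knock-out tags to 13.7% at 8 or 9, and was 9.68% (5.52 to 15.5) at 10 or more. The clusters left out held the palindrome in 5.57% (4.64 to 6.61) of cases, with 2.85 per 10 kb at their centre, so neither value sets the members apart from them.

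Single half-sites (TTGGCA on either strand, which includes those within a palindrome) rose with the knock-out tags. They were found in 24.7% (23.8 to 25.7) of members, 24.1% (22.4 to 26.0) of the clusters left out, 15.6% of background positions and 14.4% of all stretches. By knock-out tags the share was 20.9% at 5, 27.2% at 6, 34.3% at 7, 42.6% at 8 or 9 and 51.6% (43.5 to 59.7) at 10 or more. Of the 542 members with 8 or more tags, the 179 near a deposited site held a half-site in 50.3% of cases and the 363 others in 42.7% (37.6 to 48.0), with overlapping intervals. The 107 of them without a wild-type tag held one in 43.9% (34.3 to 53.9). For these 107 the palindrome share was 4.67% (1.53 to 10.6). Over all members the half-site share rose with wild-type tags, from 19.9% at 0 through 28.4% at 1 to 4 to 40.2% at 5 or more.

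No motif was assumed in a count of all 7-base words in the same 542 members. Of 275 words present in at least 10% of their windows, the 10 with the highest ratio to every 100th stretch of the genome were compared. Of these 10 words, 9 held TTGGC or its reverse complement GCCAA. The 9 share this core, so they are not separate results, and its share among the 275 words was not counted. The stretches were not matched to these members in GC content. The first, CTTGGCA, was in 21.0% of the members and in 4.51% of the stretches. The other word was TGACTCA, the core of the AP-1 site, in 17.0% of the members and 4.74% of the stretches.

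Other motifs were read in the same windows. The AP-1 motif TGANTCA (both strands), bound by dimers of Fos and Jun proteins, was in 15.6% of members, 15.5% of the clusters left out, 9.91% of background positions and 8.87% of stretches, and in 27.7% (20.9 to 35.5) of members with 10 or more tags. The TEAD motif GGAATG was in 21.8% of members against 16.3% of background positions. Half-site and AP-1 motif occurred together in 363 members (4.85%), and 4824 members (64.5%) held neither. These joint counts were made for the members only, so no share of background positions stands beside them. The CCAAT box (CCAAT) was in 37.5% of members and 38.6% of background positions, and the GC box (GGGCGG) in 3.81% and 2.61%. The clusters left out held the GC box in 15.4% of cases. A match is a description of the letters in a window, and the GC content of the members (median 43.7%) differed from that of background positions (41.7%). The median GC content also rose with knock-out tags, from 42.7% at 5 to 48.0% at 10 or more. The part of GC content in the motif shares was not tested.

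**Figure D4:**
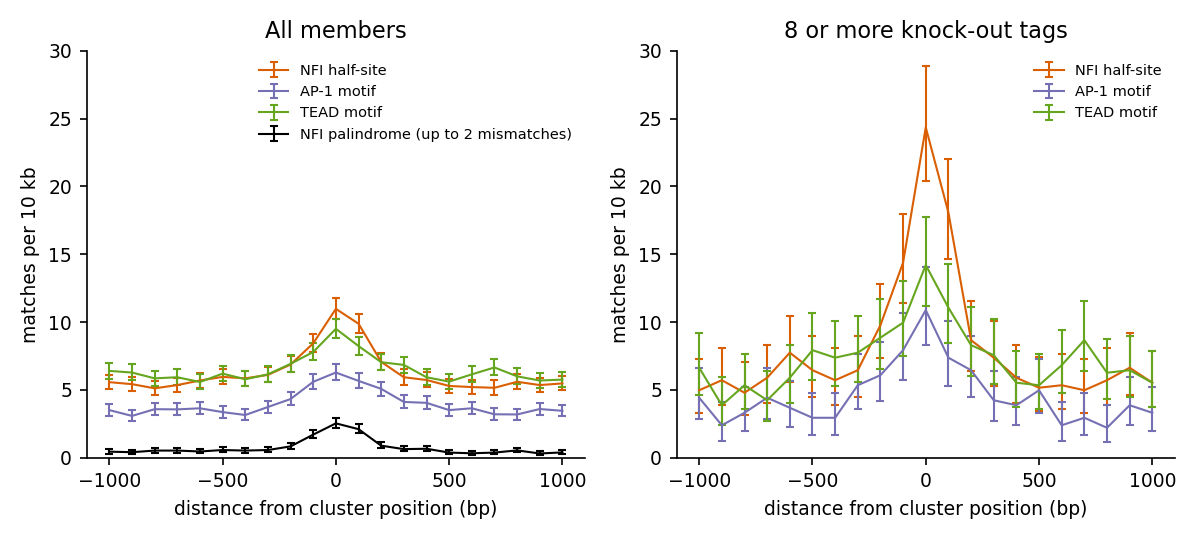
Matches per 10 kb in bins of 100 bp, by distance in bp from the cluster position, for all 7477 members (left) and for the 542 with 8 or more knock-out tags (right); error bars are exact 95% Poisson intervals. Half-sites peaked at the centre with 11.0 per 10 kb in all members and 24.4 in those with 8 or more tags, and AP-1 and TEAD motifs rose there less.

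The members lay mostly in introns and between genes. Of all members 46.2% (45.1 to 47.4) lay inside a protein-coding gene of the GENCODE vM1 annotation, 42.8% in introns, 2.26% in UTR or other non-coding exon sequence and 1.22% in coding exons. The share inside genes was 42.6% for the background positions, 39.5% for the sequence and 46.3% for input tags, which lies inside the interval of the members. Within 5 kb upstream of a TSS lay 9.78% (9.11 to 10.5) of members, against 7.63% of background positions, 7.17% of the sequence and 11.9% of input tags. Within 1 kb upstream lay 3.40% (3.00 to 3.83) against 1.84% of background positions and 5.34% of input tags. These shares use all 3920580 input tags, while the members were kept by a limit on input tags, so the input is not a matched comparison. The clusters removed by that limit lay within 1 kb upstream in 15.8% of cases. The part of the limit in the lower upstream shares of the members against input tags was not tested. Members near a deposited site were within 5 kb upstream in 13.3% of cases and other members in 9.38% (8.70 to 10.1). The clusters left out were there in 25.3% of cases, so the members are not a full account of knock-out tags at promoters.

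Chromatin regions deposited with the sites, which the authors list as rich in a histone mark or attached to the lamina in MEF, held the members unequally. These lists may hold only a portion of the mapped regions, so a position outside them is not shown to lack the mark. H3K4me3, the mark of active promoters, covered 48.8% of members in these broad regions against 25.3% of background positions and 19.9% of the sequence. Near a deposited site this share was 77.1% (73.9 to 80.1), and at members with 10 or more knock-out tags 77.4% (70.0 to 83.7). H3K27me3, a mark of Polycomb repression, covered 57.9% against 46.3%, and H3K36me3, a mark of transcribed gene bodies, 34.1% against 24.4%. Regions in both the H3K4me3 and H3K27me3 lists held 32.8% against 15.8%. Lamina-associated regions, which are gene-poor and mostly silent, held 28.4% (27.3 to 29.4) against 37.7%. The clusters left out were further from the background positions than the members as a whole, with 72.1% in H3K4me3, 69.7% in H3K27me3, 50.0% in H3K36me3, 55.6% in both H3K4me3 and H3K27me3, and 17.9% in lamina regions. Input tags, which carry no NFI precipitation, moved in the same direction from the sequence (31.7% in H3K4me3 regions and 34.1% in lamina regions). Their part in the shares of the members was not tested.

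**Figure D5:**
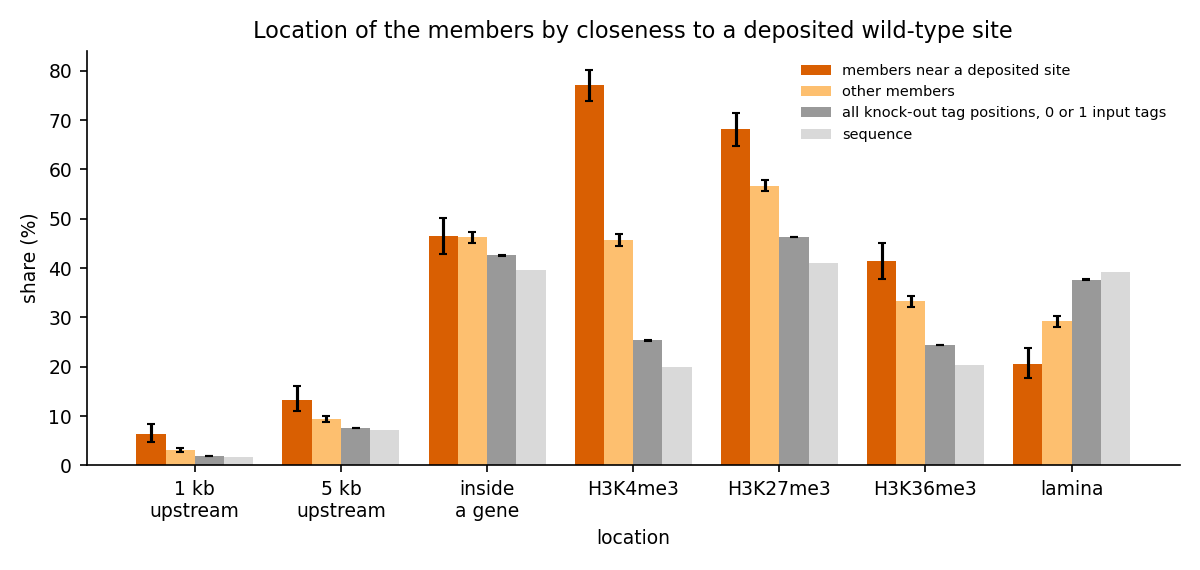
Share in percent of 742 members near a deposited wild-type site, 6735 other members, all knock-out tag positions with 0 or 1 input tags, and the known sequence, that fell in each kind of region; error bars are exact 95% binomial intervals. Members near a deposited site were in H3K4me3 regions in 77.1% of cases and other members in 45.7%, against 25.3% of tag positions, while the order was reversed for lamina regions.

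Members were 3.12 per Mb over chromosomes 1 to 19, from 2.38 on chromosome 14 to 3.65 on chromosome 3. The share near a deposited site ran from 6.86% on chromosome 17 to 13.3% on chromosome 13. The median distance to the nearest other member was 80.3 kb, and 904 members (12.1%) had another within 10 kb. The densest 1 Mb stretch, 41000001 to 42000000 on chromosome 9, held 16 members of which 3 were near a deposited site, and contains Sorl1, a sorting receptor gene. Its totals were 1790 knock-out, 1826 wild-type and 1942 input tags. The second, 116000001 to 117000000 on chromosome 9 with Tgfbr2 (a receptor of TGF-beta) and Rbms3 (an RNA-binding protein), held 15 members, of which 2 were near a deposited site.

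The members with the most knock-out tags were 11 with 15 to 20 and 4 with 14. Of these 15, the first 12 are described here. Bach2 was taken from the 4 tied at 14 by its input and then its wild-type tags, so the wild-type counts had a part in that choice. Another of the 4, in 2810055G20Rik, is given with the palindromes. An intron of Bcas3 had 20 knock-out, 8 wild-type and 1 input tags, 67 bp from a deposited site. An intron of Camk1d, a calcium/calmodulin-dependent kinase gene, had 20, 7 and 1 tags at chr2:5534997-5535296, and lay 96 bp from a deposited site without a TTGGCA half-site. Both had wild-type counts far above the genome average of 0.399 per window. Myst4, a histone acetyltransferase gene, had 17 knock-out, 2 wild-type and 0 input tags in the intron shown above, and the nearest deposited site was 15913 bp away. The member 19.6 kb from 1700029H14Rik on chromosome 8 also had 17 knock-out tags and none in either other library. An intron of Nr3c1, the glucocorticoid receptor gene, had 15, 7 and 0 tags and lay 72 bp from a deposited site.

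Of the other 7 of these 12, all with 14 or 15 knock-out tags, those with 5 or 6 wild-type tags lay upstream or downstream of B930007M17Rik, Epha7, Tmem41b and Bach2. Bach2 encodes a leucine zipper transcription factor, and the member 58.9 kb upstream of it held both a half-site and an AP-1 motif. Epha7, an ephrin receptor gene, was the nearest gene to its member at a distance of 889.2 kb, and B930007M17Rik was 207.7 kb from its member. Those with 0 or 1 wild-type tag were nearest to Kcnj2 (a potassium channel), Prss22 (a serine protease) and Runx1 (a transcription factor of blood cell development). These genes were 300.8, 2.40 and 180.8 kb away. A deposited site lay within 300 bp of 5 of the 11 members with 15 or more tags and of 9 of all 15 with 14 or more.

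Members within 1 kb upstream of a TSS had at most 12 knock-out tags. The highest 2 had 12 knock-out, 4 wild-type and 0 input tags each, one in an intron of Scrn3 at -833 bp from a Cir1 TSS (chr2:73151441-73151740) and the other 256 bp upstream of Gm4861 (chr3:137215692-137215991). Cir1 encodes a corepressor. The member at Angptl4, a secreted inhibitor of lipoprotein lipase, lay 392 bp upstream of a TSS with 11, 5 and 1 tags, 28 bp from a deposited site, and held a palindrome with 2 mismatches. Znrd1, an RNA polymerase I subunit gene, had a member with 10, 7 and 0 tags at its start. Odz4 (a teneurin) and Rasal2 (a Ras GTPase-activating protein) each had 9 knock-out tags with 2 and 1 wild-type tags, and the nearest deposited sites were 21626 and 26137 bp away.

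A pair of members upstream of Gm10222 on chromosome 1 stood apart. Both had 10 knock-out tags and no wild-type or input tag, at 24619415 to 24619714 and at 24619777 to 24620076. They lie in a 4.65 kb segment (24618374 to 24623023) in which 98.8% of 32-base stretches also occur in the mitochondrial sequence of the same build. The segment held 20 knock-out tags, 0 wild-type tags and 0 input tags in all. The 2 windows matched mitochondrial DNA in 91.1% and 88.1% of their 32-base stretches.

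Members without a wild-type tag reached 17 knock-out tags. After the members near 1700029H14Rik (17) and Runx1 (15), the highest were in or near Vwa5b1 (13), Hs6st1 (12), Tlr2 (12) and Mcc (11). Tlr2, a receptor of bacterial lipoproteins, had its member 13569 bp from the nearest TSS and outside the gene, with 1 half-site and 2 AP-1 motifs in the window. Their distances to the nearest deposited site ran from 997 to 30325 bp. At the other end, the members with the most wild-type tags were in or nearest to D7Ertd443e (12 knock-out, 18 wild-type and 1 input tags), Hs6st1 (9, 13 and 0) and Cdh17 (5, 13 and 0). Tec (8, 12 and 0), Ccdc42 (12, 11 and 0) and Cd83 (9, 11 and 1, at 132.4 kb) followed. Ccdc42 and Cd83 were taken from 4 members tied at 11 wild-type tags. Hs6st1, a heparan sulfate 6-O-sulfotransferase gene, thus had both kinds at different positions, 37852 and 192804 bp upstream. All 6 of the second kind had a deposited site within 145 bp.

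The members with an exact or nearly exact palindrome, shown above, had 6 to 14 knock-out tags. The Nfia member lay inside the annotated spans of both Nfia and the overlapping gene E130114P18Rik, at -1068 bp from the nearest Nfia TSS. It had 7 knock-out, 2 wild-type and 0 input tags, and the palindrome was centred at -27 bp from the cluster position. A deposited site was 114 bp away. Kcnip4, a gene of a potassium channel-interacting protein, had its member 4886 bp upstream with 7, 6 and 0 tags. The members in Jazf1, in Rhot1 (a mitochondrial GTPase) and 15.0 kb outside Fxyd5 had 6, 6 and 7 knock-out tags and 2 to 3 wild-type tags. Their deposited sites were at 16248, 7991 and 24531 bp. The member in Crybg3 had 6, 6 and 1 tags and a site 111 bp away. Of those with 1 mismatch, 2810055G20Rik had 14, 3 and 1 tags and Ccdc41 had 11, 1 and 0. The member 10294 bp upstream of Ctnnb1, the gene of beta-catenin, had 10, 7 and 1 tags with the palindrome 3 bp from the cluster position. Celf2 (9, 6 and 0), Wif1 (9, 3 and 0), an inhibitor of Wnt ligands, and Gdf15 (9, 6 and 1), a secreted factor of the TGF-beta family, completed this set. The Celf2 member lay 165.7 kb outside the gene.

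Of 21418 protein-coding genes, 2828 (13.2%) had a member inside or within 5 kb upstream, at 3.70 members per Mb of gene and upstream sequence. Gene entries with long annotated spans carried the most, and whether such a span also covers other genes was not examined. The highest were the entries of Gm20388 (22 members over 4440 kb) and Fgfr2 (11 over 3014 kb). Dnm3, a dynamin gene, had 9 members over 501 kb (18.0 per Mb) and Arfip1 9 over 1396 kb (6.45 per Mb). Cdkal1 had 8 over 669 kb and Pde4d, a phosphodiesterase gene, 8 over 1509 kb. Lists are therefore given per Mb, to be read beside the value of all genes.

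Matrix genes of fibroblasts were read first, against 3.70 members per Mb over all genes. Of 18 matrix glycoprotein genes 9 had a member, 14 members in all or 12.3 per Mb (6.74 to 20.7). They were Fn1, Fbn1, Cyr61, Tnc, Fbln2, Dcn, Fbln5, Vcan and Thbs2. Fbln2 and Thbs2 each had 3. Fbn1, the fibrillin gene, had a member with 7 knock-out, 5 wild-type and 0 input tags in an intron, while the highest at Fbln2 had 7, 0 and 1. Of 41 collagen genes 16 had a member, at 5.77 per Mb (3.84 to 8.34), with the most tags in an intron of Col24a1 (13, 1 and 0) and 4 members at Col5a1. Next by knock-out tags was an intron of Col7a1 (7, 1 and 1). Col3a1, the gene of fibrillar collagen III, had 1 member of 5 knock-out tags, which was not near a deposited site. Col1a1 and Col1a2 were not among the 16 genes. Of 37 integrin and laminin genes 14 had a member, at 5.11 per Mb (3.08 to 7.98). Itga11, the collagen-binding integrin subunit of fibroblasts, and Itgb5 each had a member with 10 knock-out, 2 wild-type and 0 input tags at 149 and 2 bp from a deposited site, and Lamb1 had one with 8 knock-out tags.

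Of 25 TGF-beta and BMP genes 10 had a member, at 8.02 per Mb (4.67 to 12.8). Among the intracellular mediators Smad3 had 4 members, the highest in an intron with 11, 3 and 1 tags, Smad1, Smad6 and the inhibitor Smad7 had 2 each, and Smad4 had 1. Both members of Smad7 were near a deposited site. Of the receptors, Tgfbr2 had 2 members and Tgfbr3, Acvr2a and Bmpr1b had 1 each. Of the ligands, Bmp6 had 1 member with 8, 5 and 0 tags. Of 14 symbols of mesenchymal transcription factors 7 had a member, namely Twist2, Zeb1, Zeb2, Meox1, Snai2, Runx2 and Tcf4, at 8.18 per Mb (4.47 to 13.7) over 15 gene entries, since Runx2 is annotated as 2 overlapping entries.

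The other lists held few members. In the NFI family, Nfia had 1 member and Nfib 2, the higher with 6, 1 and 1 tags, and none was found within Nfic or Nfix, so the family was at 3.00 per Mb (0.619 to 8.77). Of the 8 AP-1 genes Fosl2 had 2 members and Fos 1, with 5 knock-out tags at most, which over their short sequence is 29.6 per Mb (6.11 to 86.6). The PDGF ligands and receptors had 1 member, of 5 knock-out and 0 wild-type tags, in a UTR of Pdgfc. Of 1106 olfactory receptor genes, which are silent in fibroblasts, 5 had a member (Olfr417, Olfr877, Olfr918, Olfr117 and Olfr1438-ps1), at 0.671 per Mb (0.218 to 1.57). Genes with a member near a deposited site numbered 5 of the 10 TGF-beta and BMP genes with a member, 2 of 16 collagen genes, 2 of 9 matrix glycoprotein genes, 3 of 14 integrin and laminin genes, 2 of 7 mesenchymal factor genes, 1 of 2 NFI genes, 1 of 2 AP-1 genes, 0 of 1 PDGF genes and 0 of 5 olfactory receptor genes. Over all genes it was 392 of the 2828 with a member, or 13.9% (12.6 to 15.2), and no list was tested against it. Per 1000 knock-out tags in the same sequence there were 2.69 members over all genes. On this measure the olfactory receptor genes had 0.658, the PDGF genes 1.18, the NFI genes 1.74, the integrin and laminin genes 3.43, the collagen genes 3.88, the TGF-beta and BMP genes 4.78, the mesenchymal factor genes 5.02, the matrix glycoprotein genes 6.76 and the AP-1 genes, with 3 members in all, 11.8.

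Repeated sequence was rare among the members. A window was called high-copy where its 16-base words occurred 10 or more times in the genome at the median. Of the members 3.21% were of this kind, of those near a deposited site 0.135%, and of every 200th background position 10.4%. Positions and strands shared with the wild-type library made up 0.556% of the tags at the members against 0.291% over the whole library. At the clusters left out the shared part was 20.9%. Wild-type tags were also denser than the genome average at the members (2.64-fold) and at the clusters left out (11.6-fold). The part of this density in the shared positions was not tested.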

How the data were processed

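ELAND was used by the authors against mm9, and their deposited read lists give a match code, position and strand, from which tags were counted here. They also deposited in vivo NFI sites called on the wild-type library with ChIP-peak (300 bp window, 300 bp vicinity, 5 tags, 1 tag per position, repeat filter), settings that did not by themselves give that list here, and listed chromatin regions. ELAND positions refer to the first 32 bases, so the 5′ end of a reverse tag was its position plus 31. Uniquely mapped tags on chromosomes 1 to 19 were kept at 1 per position and strand, runs pooled. The repeat filter was not repeated; the copy number of 16-base words was used instead. TSS and genes came from GENCODE vM1, sequence from NCBI build 37. Members to be named were the highest 12 by knock-out tags, 8 within 1 kb upstream, 6 without wild-type tags, 6 by wild-type tags, 6 with a palindrome of at most 1 mismatch and 2 per gene list, with ties settled by fewer input and then more wild-type tags. Further list genes named above fall outside this rule. The members and all 9 lists were chosen with earlier results of these data known. Scripts used Python 3.11.15, numpy 2.4.6, pandas 2.3.3 and SciPy 1.17.1, and the cluster rule was tested on simulated data. Alternatives are given in the closing section. Per-sample columns left unmatched: 0.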

Additional observations from a re-analysis of the deposited data

How the results depend on the processing

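Of 91 values under an alternative, 37 moved by less than their counting interval or, for the number of members, by less than 1.5 times, and 54 moved further. Values follow in the order members, share near a deposited site, wild-type fold, share within 5 kb upstream, share inside genes and palindrome share, where each moved. Without the limit of 1 tag per position they were 584257, 1.45%, 1.17, 7.49%, 42.5% and 1.53%. Tags without mismatch gave 11.0% near a site and 2.71-fold. Tags shifted by 75 bp gave 18692 members, 6.14%, 2.09-fold and 4.08% with the palindrome. A window of 200 bp gave 2402, 19.7%, 4.13-fold, 11.1% upstream and 8.70% with the palindrome, and one of 500 bp 31204, 4.09%, 1.66-fold, 8.46% and 2.96%. A threshold of 6 tags gave 2460, 17.7%, 3.94-fold and 9.59% with the palindrome, and one of 8 tags 542, 33.0%, 6.43-fold, 8.49% upstream and 12.5%. Only clusters with 0 input tags gave 4540, 8.83% and 2.46-fold, and 0 to 2 input tags 10.8% and 2.75-fold. Leaving out a run of the knock-out library in turn gave 4363 to 6296 members, 10.9% to 12.5% near a site, 2.75 to 2.97-fold, 45.1% to 46.3% inside genes and 6.18% to 7.06% with the palindrome. With near taken as 1000 or 150 bp, 15.0% or 6.43% of members were near a site. The outermost TSS gave 5.79% upstream, 1 kb gave 3.40% and 10 kb 15.3%. All annotated genes held 48.9%, and at most 1 mismatch left the palindrome in 0.776%. A vicinity of 1000 bp, and the removal of high-copy members, an alternative chosen after seeing the data, moved none of the 6 results. The cause of these moves was not tested. No paired analysis was possible because each condition had 1 library.

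A run here is a group of reads whose names start alike. The knock-out library held 3 and the input 2, while the labels give 3 flow cell channels for each. How runs relate to channels was not checked. The runs of a condition come from 1 library, so they say nothing of other cells or animals. A count of 5 knock-out tags is at the threshold and most members have it. Which single members are kept without a run was not tested.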
